A study of Mus musculus with 99 samples.

Results

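The leiomodin, tropomodulin and tropomyosin genes were followed in single outer hair cells of the mouse cochlea and in outer hair cells made to express the transcription factor Tbx2. The members were taken by name from the deposited count table: Lmod1, Lmod2, Lmod3, Tmod1, Tmod2, Tmod3, Tmod4, Tpm1, Tpm3 and Tpm4, which are 10 of its 55291 gene symbols. One group held 32 wild-type outer hair cells (OHCs) of postnatal day 30 from C57BL/6 mice with the genotype Slc26a5-CreER/+; Ai9/+. The other held 67 cells of postnatal day 42 with the genotype Slc26a5-CreER/+; Rosa26Tbx2/+, named converted inner hair cells (cIHCs) by the submitters. Both groups carry the inducible Cre driven by Slc26a5, the gene of the OHC motor protein prestin, and all cells were picked by hand for tdTomato fluorescence. Age and genotype differed together. No animal is named in the labels. Each group was therefore treated as 1 sample, no test between the groups could be made, and no level was set against native inner hair cells.

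Actin filaments grow and shrink at a fast barbed end and a slow pointed end. Tropomodulins cap the pointed end, and leiomodins, which share their actin-binding folds, start new filaments instead; both work with tropomyosins, the coiled coils that lie along the filament. Hair cells are rich in filaments, which fill the stereocilia, form the cuticular plate that anchors them, and line the lateral wall of OHCs. Lmod2 and Tmod4 are best known from striated muscle, Lmod3 from skeletal muscle, Lmod1 from smooth muscle, Tmod1 from muscle and red blood cells, and Tmod2 from neurons.

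In these cells Lmod3 and Tmod2 were the members that were lower in cIHCs by the widest margin. Lmod3 was present in most OHCs and almost absent from cIHCs, and Tmod2 was 3.62-fold lower in the pools. Tpm1, the main tropomyosin of both groups, was lower in cIHCs by a smaller margin. Lmod1, Tpm3 and Tpm4 were higher in pooled cIHCs, but the order of Lmod1 turned round among the cells that carry Y-linked reads. Lmod2 had no read in any cell.

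The 10 genes lie on 6 chromosomes of the GENCODE M21 annotation of mm10. Of the genes the results turn on, Lmod3 spans chr6:97238534-97252759 on the minus strand, Tmod2 chr9:75565621-75611325 (minus), Tpm1 chr9:67022590-67049406 (minus) and Lmod1 chr1:135324807-135368065 (plus). All 10 are protein-coding. RefSeq's promoter table (GRCm38.p6, the same assembly) held 8 of the 10. It had no window for Lmod3 or Tmod3, so these genes were not searched for the motifs below. Tmod2 and Tpm3 had windows at more than a single start site. The 250 bases before the start site are shown for Tmod2, the faller with the most reads in OHCs, and for Lmod1, the leiomodin that was retained. Of the Tmod2 windows the furthest upstream is shown. Any motif match is in capitals.
Tmod2 (chr9:75611326-75611575, minus strand): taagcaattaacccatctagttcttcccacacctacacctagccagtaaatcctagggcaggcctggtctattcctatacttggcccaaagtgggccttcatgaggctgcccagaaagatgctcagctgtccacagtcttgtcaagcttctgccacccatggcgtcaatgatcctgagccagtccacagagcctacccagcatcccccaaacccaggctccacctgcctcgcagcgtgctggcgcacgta
Lmod1 (chr1:135324563-135324812, plus strand): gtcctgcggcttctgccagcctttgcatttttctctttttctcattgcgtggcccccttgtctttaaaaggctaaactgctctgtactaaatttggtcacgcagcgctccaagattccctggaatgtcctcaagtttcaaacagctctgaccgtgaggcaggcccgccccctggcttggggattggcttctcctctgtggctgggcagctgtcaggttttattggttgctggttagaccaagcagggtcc
Neither holds a capital, because none of the 3 motifs searched on both strands was found in them, nor in the other 8 windows of the members. The motifs were the T-box site GGTGTGA, present in 3.33% of all 32851 windows of this length, the GFI1 core AATCAC (9.14%) and the CArG box of serum response factor (1.47%). These letters are only a description of these windows. The GC content of the Tmod2 and Lmod1 windows was 55.6% and 53.2%, against a median of 52.4% over all windows.

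Sequencing depth was 5656512 to 9287413 counts for an OHC and 4677682 to 13792672 for a cIHC. Tbx2 amounted to 3 counts over the OHCs, and every cIHC had Tbx2 reads, with a median of 583.9 CPM (a gene's counts scaled to the cell's total). The 8 OHC marker genes summed to a median of 53540 CPM per OHC and 886.9 CPM per cIHC, and the 9 inner hair cell genes to 2406 and 12612 CPM, so the groups matched their labels. A median of 6068.5 genes had reads in an OHC and 8546 in a cIHC, so the share of cells with reads of a weakly expressed gene does not compare like with like; the part of this gap in the values was not tested. Marker lists of other cell types were at or near 0 in the median cell of each group, but single cells held more. The 8 skeletal muscle genes summed to 23 CPM in pooled OHCs (0 to 166.0 per cell, 6 genes at 0) and 14.9 CPM in cIHCs (0 to 105.5, 2 genes at 0), with Ckm and Myh1 at 0 in both groups. The 8 smooth muscle and mural genes summed to 0.0165 and 2.36 CPM with Acta2 at 0 in both, the 8 erythroid genes to 4.52 and 5.95 CPM, and the 5 fibroblast genes to 54.4 and 21.7 CPM, with up to 1315 CPM in 1 OHC and 593.9 CPM in 1 cIHC. The 8 supporting cell genes summed to 39.2 and 22.7 CPM (up to 896.7 and 865.7 CPM in a cell). The 5 glia genes summed to 14.3 and 8.19 CPM (up to 174.1 and 118.9 CPM). The 9 macrophage genes summed to 6.23 and 49.7 CPM (up to 127.2 and 336.9 CPM), with 4 genes at 0 in OHCs and 6 in cIHCs. Of the cIHC sum, C1qb alone gave 48.2 CPM, with reads in 35 cIHCs, and Cd68 gave 1.43 CPM. In OHCs C1qb was at 0 and Cd68 had 6.11 CPM. The source of the C1qb reads was not tested.

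Lmod3, whose loss in people and mice causes a weakness of skeletal muscle, split the OHCs. Reads were found in 23 of 32 OHCs, with a lowest value of 0, a median of 64.6 CPM and a highest value of 490.7 CPM. In 18 OHCs the level was at least 10 CPM, and 4 of the remaining 5 with reads held only 1 to 3 counts. In the 9 OHCs without a read, Slc26a5 ran from 1545 to 2519 CPM and Ocm from 41598 to 62656 CPM, and 5840 to 8567 genes had reads. Medians over all 32 OHCs were 2026 CPM, 43601 CPM and 6068.5 genes. Both genes are far more abundant than Lmod3, and whether Lmod3 reads were missed in those 9 cells was not tested. Among cIHCs, 2 of 67 cells had Lmod3 reads, with 53.1 and 115.4 CPM. The groups overlapped in those cells and in the OHCs at 0, and 12 OHCs lay above every cIHC.

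Summed over cells, Lmod3 had 131.0 CPM in OHCs (exact Poisson 95% interval 129.6 to 132.4) and 2.43 CPM in cIHCs (2.30 to 2.56), a log2 ratio of -5.75 (-5.84 to -5.68), or 54-fold lower. Intervals of CPM and of ratios describe the counting of reads alone, and those of shares of cells treat the cells as independent draws; reads copied by amplification are not separate molecules when no identifiers mark them, and variation among animals lies outside them. The share of cells with reads was 71.9% in OHCs (Clopper-Pearson 53.3 to 86.3) and 2.99% in cIHCs (0.36 to 10.4), or 69.0% and 3.03% after thinning each cell to 5770000 reads. Of the cIHC counts 70.8% came from cell cIHC 34; the log2 ratio was -7.36 once the top cell of either group was removed. In pairs of 1 cIHC and 1 OHC, the cIHC was higher in 15.2% (a tie counted as a split pair).

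The 2 cIHCs with Lmod3 differed in the rest of their profile. Cell cIHC 22 had the highest Ocm of all cIHCs, at 4718 CPM, the highest Lbh (91.8 CPM) and the highest Chrna10 (201.2 CPM), which are 3 of the 8 genes of the OHC list. Others of that list were low in it: Sri, at 214.8 CPM, ranked 63 of 67, Strip2, at 24.6 CPM, ranked 62, and Ikzf2 had no read, like the median cIHC, while Aqp11 at 70.5 CPM ranked 19. Its Tmod2 level of 398.6 CPM ranked 5. Cell cIHC 34 had no Tmod2, Lbh or Ikzf2 read and the highest Tpm1 level of the cIHCs, at 381.5 CPM. Of its OHC genes Aqp11 ranked 3 (173.2 CPM), Chrna10 ranked 6 (38.9 CPM) and Ocm ranked 12 (212.4 CPM), while Sri ranked 29 and Strip2 ranked 60. Both had no Slc26a5 read, and both had less Tbx2 than the median cIHC, at 232.4 and 117.7 CPM, which rank 58 and 66 of 67. They also had Slc17a8, the vesicular glutamate transporter gene of inner hair cells, at 1373 and 902.5 CPM, on either side of the cIHC median of 1093 CPM.

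**Figure D1:**
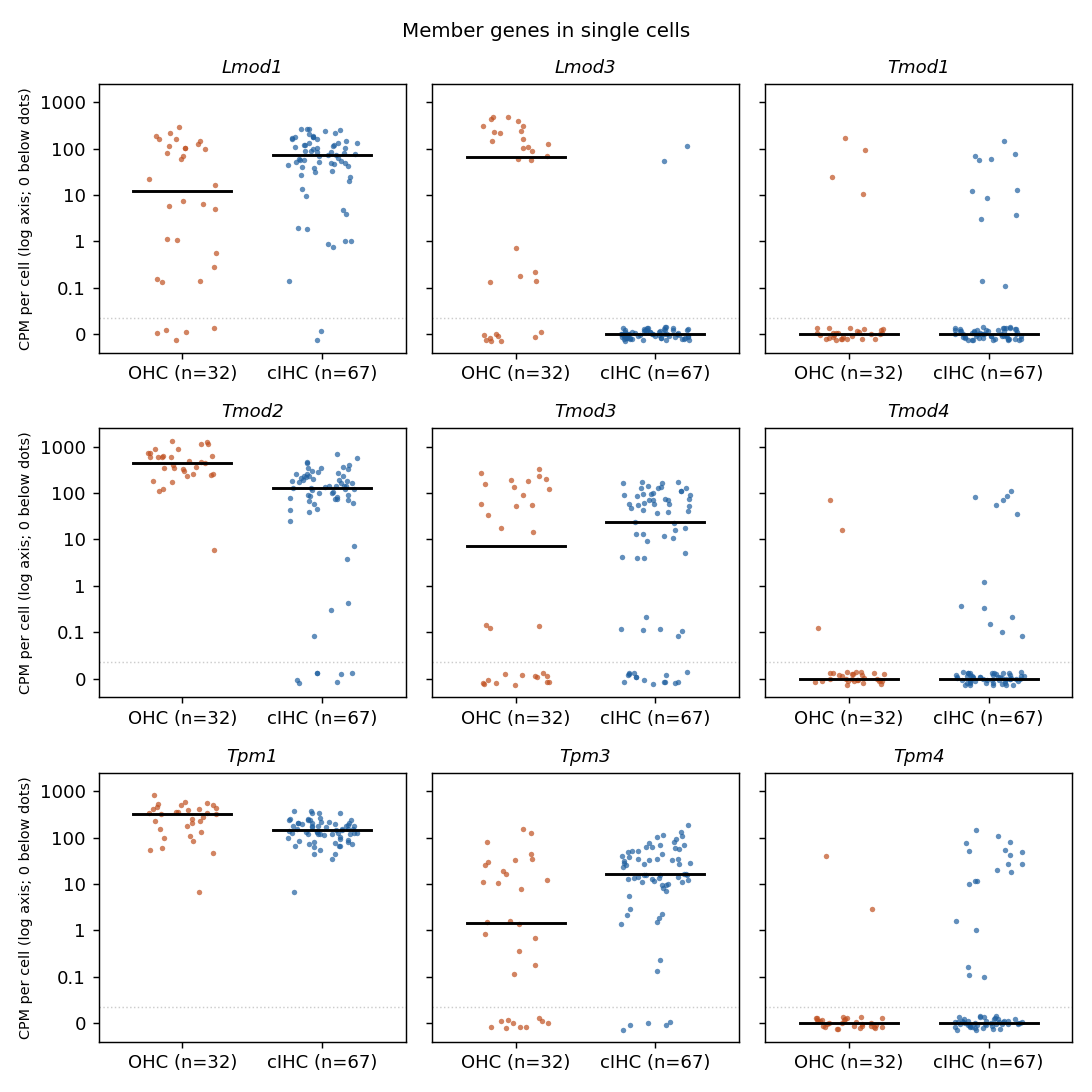
CPM per cell on a log axis, with cells at 0 drawn below the dotted line, for 9 members in 32 OHCs and 67 cIHCs; each point is 1 cell and the bar is the median. Lmod3 is at 0 in 65 cIHCs, Tmod2 and Tpm1 are in all OHCs, and Tpm4 reads come from 20 cIHCs and 2 OHCs; Lmod2, which is not drawn, was 0 throughout.

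Lmod1 had a different spread. OHCs ran from 0 to 295.3 CPM with a median of 12.0 CPM, and 27 of 32 had reads. In cIHCs it ran from 0 to 270.5 CPM with a median of 72.6 CPM, and 65 of 67 had reads. The OHC with the largest part of the OHC counts had 121.9 CPM of the glia list, whose part in its value was not tested. The ranges overlapped almost fully: 1 OHC lay above every cIHC, and 55 cIHCs lay above the OHC median. Pooled levels were 60.2 and 92.9 CPM, a log2 ratio of 0.63 (0.60 to 0.65), and the cIHC was higher in 63.9% of pairs. The typical cells differed more than the pools, with a log2 ratio of 2.60 for the medians per cell. Of the 8 smooth muscle and mural genes, 5 had no read in any OHC and 2 had none in any cIHC. The list reached 0.152 CPM in an OHC and 66.7 CPM in a cIHC. Its part in the Lmod1 values was not tested.

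Lmod2 had 0 reads in 32 OHCs and 67 cIHCs, which by the rule of 3 cells over the number examined allows a share of cells with reads of up to 9.38% and 4.48% (Clopper-Pearson upper limits 10.9% and 5.36%). No ratio was computed.

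Tmod2 was the most abundant tropomodulin, and it was read in more cells of each group than Lmod3. Every OHC had reads, from 5.92 to 1310 CPM with a median of 453.8 CPM, and all but 1 OHC had more than 100 CPM. The cIHCs ran from 0 to 683.2 CPM with a median of 126.0 CPM, and 7 of 67 had no read. The groups overlapped over most of the cIHC range, yet 29 of 32 OHCs lay above the cIHC median and only 3 of 67 cIHCs above the OHC median. Pooled levels were 539.9 CPM (536.9 to 542.8) and 149.0 CPM (147.9 to 150.0), a log2 ratio of -1.86 (-1.87 to -1.84). In pairs the cIHC was higher in 13.4%, and leaving out the highest cells changed the log2 ratio to -1.85.

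Tmod3, the tropomodulin found in most tissues, had no clear order. OHCs ran from 0 to 331.6 CPM with a median of 7.19 CPM and reads in 19 of 32. The cIHCs ran from 0 to 172.3 CPM with a median of 23.4 CPM and reads in 52 of 67. The highest OHC had 174.1 CPM of the glia list, the most of any OHC; its part in the value was not tested. The 6 highest OHCs lay above every cIHC, while the median cIHC lay above the median OHC. The log2 ratio of the pools was thus -0.68 (-0.71 to -0.65), while that of the medians was 1.71, and the cIHC was higher in 52.9% of pairs.

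Tmod1 and Tmod4 stayed under 10 CPM in both pools and are given as values only. Tmod1 had 9.42 CPM in the OHC pool and 5.99 in the cIHC pool, with reads in 4 of 32 and 12 of 67 cells. A single OHC held 61.7% of its OHC counts, and without the highest cells its log2 ratio went from -0.65 to 0.36. Tmod1 shares exon sequence with Tstd2 on the other strand, and whether the counting used strand is not given in the sources used here, so its counts are uncertain (31.4% of its stretches of 50 bases also occur in Tstd2, which had 14.6 and 5.01 CPM). The OHC with most Tmod1 reads had 27.7 CPM of the skeletal muscle list and 151.3 CPM of the fibroblast list. Tmod4 had 2.88 and 6.89 CPM, with reads in 3 OHCs and 13 cIHCs. One OHC held 81.8% of the OHC counts of Tmod4; the same cell had the highest Lmod3 level and 108.0 CPM of the skeletal muscle list, whose median OHC is at 0. The part of these muscle genes in its values was not tested.

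Tpm1 was the main tropomyosin of both groups and was read in all 99 cells. OHCs ran from 6.87 to 821.1 CPM with a median of 319.7 CPM, and cIHCs from 6.79 to 381.5 CPM with a median of 142.1 CPM. The highest OHC was the cell with most Tmod1 reads. It had 27.7 CPM of the skeletal muscle list and 151.3 CPM of the fibroblast list, whose part in its Tpm1 value was not tested. The highest 11 OHCs lay above every cIHC, and 5 of 67 cIHCs lay above the OHC median. Pooled levels were 301.1 CPM (298.9 to 303.3) and 156.0 CPM (154.9 to 157.0), a log2 ratio of -0.95 (-0.96 to -0.93), and the cIHC was higher in 26.5% of pairs. This lies just inside the limit of 1 on the log2 scale used for counts below; TMM and median-of-ratios scaling, which lower the median of all genes by 0.22 and 0.23, moved it to -1.14 and -1.15.

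Tpm3 went the other way. OHCs ran from 0 to 156.4 CPM with a median of 1.42 CPM and reads in 22 of 32, and cIHCs from 0 to 189.1 CPM with a median of 16.4 CPM and reads in 62 of 67. The groups overlapped in nearly their whole range. Pooled levels were 18.1 and 34.1 CPM, a log2 ratio of 0.91 (0.86 to 0.96), or 3.52 for the medians per cell, and 70.5% of pairs had the higher level in the cIHC. Of the stretches of 50 bases of Tpm3, 23.2% also occur in Tpm3-rs7, a related sequence counted separately at 11.6 and 14.2 CPM, so the split of reads between them is uncertain.

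Tpm4 was rare in both groups. Reads were present in 2 of 32 OHCs, with values of 2.82 and 40.7 CPM, and in 20 of 67 cIHCs, up to 143.6 CPM, with a median of 0 in both groups. Pooled levels were 1.17 and 10.4 CPM, a log2 ratio of 3.14 (2.97 to 3.32), which became 6.49 without the highest cells because 1 OHC held 91.9% of the OHC counts; that cell had 83.4 CPM of the skeletal muscle list and 111.1 CPM of the supporting cell list, whose part in its value was not tested. In pairs the cIHC was higher in 61.9%. Tpm2, the remaining tropomyosin gene, had no read in OHCs and 0.43 CPM from 1 cIHC.

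Among the 10 members, 7 reached 10 CPM in 1 or both pools. Of these, 2 (Lmod3 and Tmod2) were lower in cIHCs by at least 1 on the log2 scale, where 14.3% of all 10041 such genes were. One (Tpm4) was higher by at least 1, where 26.3% of all genes were. The median log2 ratio of the 7 was -0.68, beside 0.25 over all genes. For Lmod3 and Tmod2 the cIHC was higher in at most 20% of pairs, a limit chosen after their values were seen, which held for 2.63% of all genes. Lmod3 alone was lower by at least 2 (6.31% of all genes), Tpm4 alone higher by at least 2 (12.7%), and no member was higher in at least 80% of pairs (6.85% of all genes). Counts of this size do not set the list apart from other genes.

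**Figure D2:**
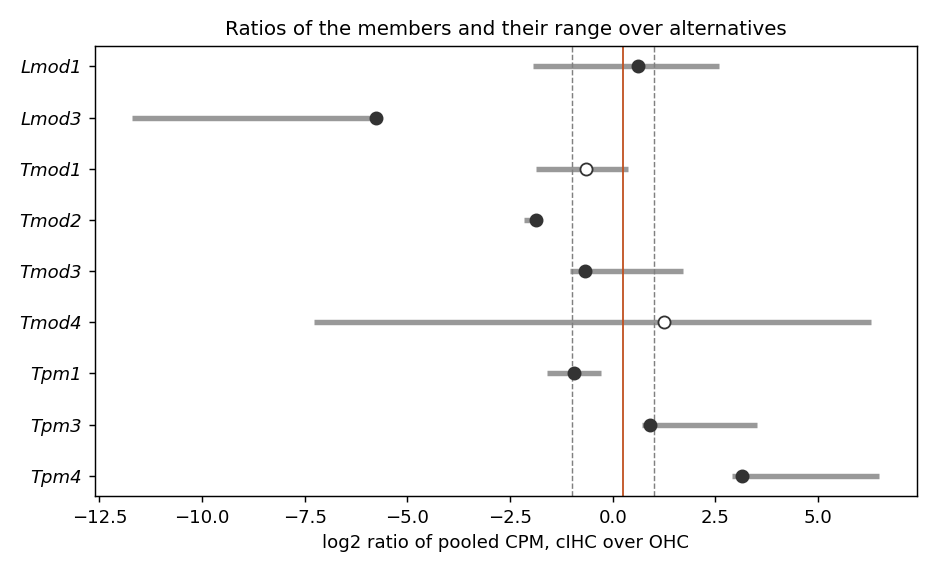
Log2 ratio of pooled CPM, cIHC over OHC, for 9 members (points; open where both pools are under 10 CPM), with the range over the alternative settings as a grey bar, limits of 1 in either direction as dashed lines and the median of all genes, 0.25, as the orange line. The bars of Lmod3 and Tmod2 stay left of -1, while those of Lmod1, Tmod1, Tmod3 and Tmod4 cross 0.

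Levels of different genes were compared per kilobase of annotated exon, since full-length libraries give longer transcripts more reads. In OHCs Lmod3 stood first, at 59.1 CPM per kb, followed by Tmod2 at 46.2, Lmod1 at 15.2, Tmod3 at 6.39, Tmod1 at 2.39 and Tmod4 at 1.67. Lmod3 and Tmod2 made up 45.1% and 35.3% of the summed level of leiomodins and tropomodulins. Lmod3 was the largest of the family in 15 OHCs and Tmod2 in 12, so the order of these neighbours varied from cell to cell. In cIHCs Lmod1 stood first at 23.5 CPM per kb, followed by Tmod2 at 12.8, Tmod4 at 4.01, Tmod3 at 3.99, Tmod1 at 1.52 and Lmod3 at 1.10. The first place of Lmod1 held for the 55 cIHCs with Xist reads (27 CPM per kb, Tmod2 12.9) and not for the 12 with Y-linked reads, where Tmod2 stood first at 12.0, followed by Tmod3 at 4.04 and Lmod1 at 3.62. Lmod1 was the largest in 39 of 67 cIHCs and Tmod2 in 20. The summed level of the family per cell had a median of 107.9 CPM per kb in OHCs (range 18.1 to 313.6) and 37.6 in cIHCs (10.8 to 132.7), and the cIHC was higher in 15.2% of pairs.

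The order depended on the length used. Per kilobase of coding sequence, Tmod2, which has 11683 bases of exon but 1065 of coding sequence, stood first in both groups, with 73.1% of the family in OHCs and 56.8% in cIHCs. Lmod3 then held 11% of the OHC sum and 0.57% of the cIHC sum, and Lmod1 4.86% and 21.1%. The ratio of a single gene between the groups does not depend on its length. Among tropomyosins Tpm1 held 93.0% of the exon-based sum in OHCs and 69.7% in cIHCs, with Tpm3 at 5.96% and 16.2% and Tpm4 at 1.07% and 13.6%. Tpm1 was the largest tropomyosin in 31 of 32 OHCs and in 58 of 67 cIHCs. Gene counts do not separate the many splice forms of the tropomyosin genes.

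**Figure D3:**
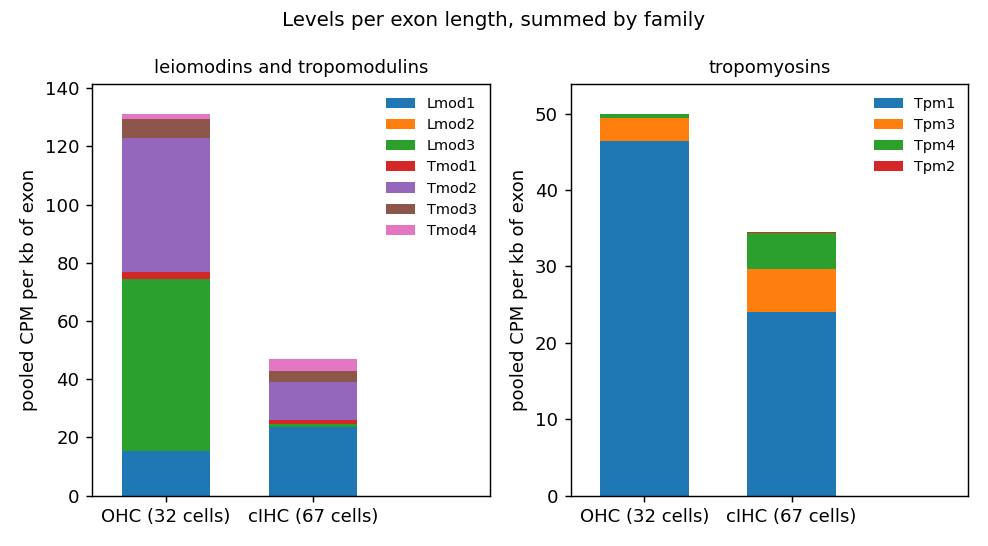
Pooled CPM per kb of exon, stacked by gene, for leiomodins with tropomodulins (left) and tropomyosins (right) in OHCs and cIHCs; there are no error bars because each group is 1 sample. The left stacks reach 131.0 and 46.9 CPM per kb, with Lmod3 as a large block in OHCs only, and the right stacks 49.9 and 34.5.

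The cells also fell into classes by sex-linked reads, which the labels do not mention. With a limit of 10 CPM, 4 OHCs and 55 cIHCs had Xist reads, 24 OHCs and 12 cIHCs had reads of Y-linked genes, and 4 OHCs had neither. Lmod1 differed between the classes within cIHCs, a comparison added after its values were seen. Cells with Xist reads ran from 0.77 to 270.5 CPM with a median of 87.0 CPM, and those with Y-linked reads from 0 to 76.4 CPM with a median of 2.90 CPM. Pooled levels were 106.6 and 14.3 CPM, a log2 ratio of 2.90 (2.82 to 2.99), or 3.69 without the highest cell of each class. The classes also differed in depth, with a median of 8098520 counts per cell with Xist reads and 6641390 with Y-linked reads, and Lmod1 had a Spearman correlation of 0.41 with the total count over the 67 cIHCs; the part of depth was not tested. Of all genes at 10 CPM in 1 or both classes, 12.7% were higher in the cells with Xist reads by at least 1. In pairs of 1 cell from each class the cell with Xist reads had more Lmod1 in 92.0%, and 1.16% of genes reached 80%. Tpm4 was lower in the cells with Xist reads, at 7.12 against 29 CPM (log2 ratio -2.03), where 7.82% of all genes were lower by at least 1. Tbx2 itself had 729.9 and 735.2 CPM in the classes. In either group 0 cells had both kinds of read. The classes of the cIHCs ran with the order of the titles: cIHC 1 to cIHC 12 had Y-linked reads, and cIHC 13 to cIHC 67 had Xist reads. Sex, animal and session cannot be told apart here as sources of these differences.

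The comparison of cIHCs with OHCs was therefore also made within each class. For Lmod1 the log2 ratio was 0.69 among cells with Xist reads and -1.94 among cells with Y-linked reads, where pooled levels were 54.9 CPM in 24 OHCs and 14.3 CPM in 12 cIHCs. Tmod2 had ratios of -2.15 and -1.87, close to the value over all cells. For Lmod3 the ratio was -5.79 with Xist reads; with Y-linked reads none of the 12 cIHCs had a read, and with the group sum set to 3 counts the level was lower by a log2 ratio of at most -11.70. Tpm1 had -0.28 and -1.59. Tpm3 had 3.52 and 0.86, the former resting on 4 OHCs with 88 counts in all. Tpm4 had 3.16 and 4.34; the former rests on 23 counts from 1 of 4 OHCs, with both pools under 10 CPM, and the cIHC was higher in 50.5% of pairs, against 77.3% with Y-linked reads. The pooled ratio of Tmod3 turned from -0.79 with Y-linked reads to 1.43 with Xist reads, the latter resting on 474 counts from 2 of 4 OHCs. In pairs the cIHC had more Tmod3 in 54.7% with Y-linked reads and 66.4% with Xist reads.

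**Figure D4:**
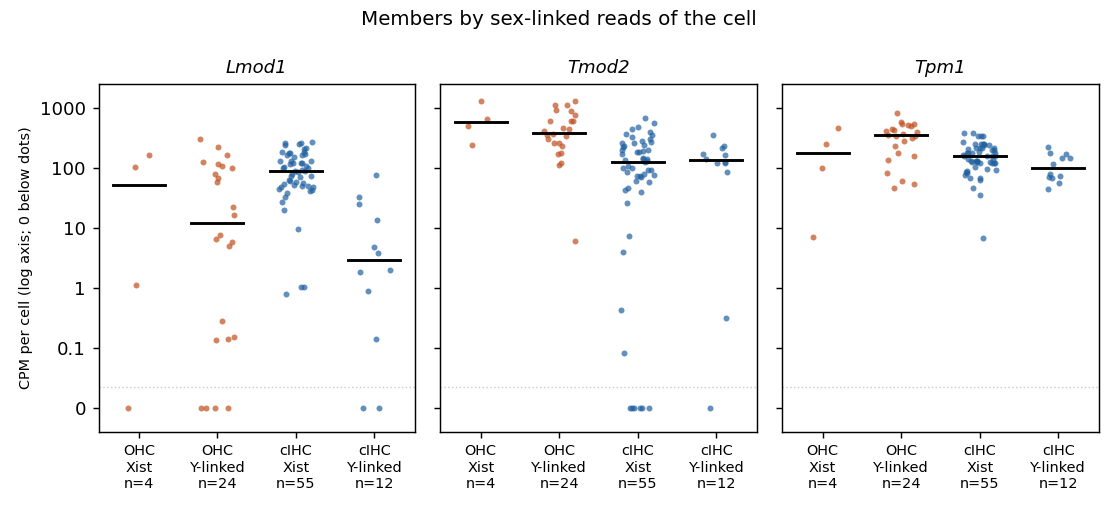
CPM per cell on a log axis (cells at 0 below the dotted line) for Lmod1, Tmod2 and Tpm1, by group and by sex-linked reads; each point is 1 cell, the bar is the median, and 4 OHCs with neither kind of read are left out. The Lmod1 median is 87.0 CPM in cIHCs with Xist reads and 2.90 CPM in those with Y-linked reads, while the Tmod2 medians of the same classes are 126.0 and 132.4 CPM.

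From cell to cell the members were only weakly correlated with each other. Among those read in 50% or more of a group's cells, Spearman correlations of CPM ranged over 32 OHCs from -0.37 (Lmod1 with Lmod3) to 0.20 (Tmod3 with Tpm1). Lmod3 and Tmod2, both lower in pooled cIHCs, had 0.14. Over 67 cIHCs they ranged from -0.31 (Tmod2 with Tpm3) to 0.18 (Tmod2 with Tmod3). These values describe weak relations in cells that differ in depth. Tmod2 itself had 0.38 with the total count in OHCs and -0.32 in cIHCs. The part of cells without reads in the correlations between members was not tested.

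The genes most like each member were sought among 2345 genes in OHCs and 3938 in cIHCs with a mean of 50 CPM or more that were read in 75% of the cells or more. In OHCs these were Ankhd1, Cacna1d and H2bc6 for Lmod1 (0.52 to 0.50), Asb1, Stt3b and Rrbp1 for Tmod2 (0.57 to 0.55), and Celf1, Ctnnal1 and Slc25a4 for Tpm1 (0.58 to 0.55). In cIHCs Tmod2 was most like S100a1, AI593442 and Amph (0.50 to 0.47), and Tpm1 most like Tmem238, Sncg and Tmem8 (0.52 to 0.43). Lmod1 was most like Ftl1, Pcp4 and Ndufab1 (0.68 to 0.66). Those 3 genes were also higher in the cIHCs with Xist reads, with log2 ratios of 2.23, 1.74 and 1.80, and among these 55 cells alone the correlations with Lmod1 were 0.51, 0.53 and 0.44. In the 12 cIHCs with Y-linked reads they were -0.10, -0.53 and 0.57. Tpm1 with Tmem238 likewise had 0.55 and -0.15 in the classes, while the 3 genes named for Tmod2 had 0.45 to 0.52 in both. Over all genes compared, the 95th percentile of the correlations with Lmod1, Tmod2 and Tpm1 was 0.29, 0.31 and 0.30 in OHCs. In cIHCs it was 0.31, 0.26 and 0.23. The genes named are the highest of all those compared, and how high unrelated genes would reach over so few cells was not tested. Lmod3 had too few cells with reads for this ranking.

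Other genes of actin filaments were taken from 7 lists. Of 90 genes in the table, 48 reached 10 CPM, of which 5 were lower by at least 1 (10.4%) and 13 higher (27.1%), close to the 14.3% and 26.3% of all genes. Their median log2 ratio was 0.31.

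The genes of the cytoplasmic actins were higher in cIHCs. Actg1 and Actb, which encode the cytoplasmic actins, were the 2 of 6 actin genes at 10 CPM, and both were higher by at least 1. Actg1 had a median of 351.1 CPM in OHCs (range 0 to 857.9) and 826.2 CPM in cIHCs (93.5 to 2750), a log2 ratio of 1.33 for the pools. Actb had medians of 113.5 and 292.6 CPM and a ratio of 1.45. The ranges overlapped, and the cIHC was higher in 85.1% of pairs for each.

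At the barbed end, 1 of 11 genes at 10 CPM was lower by at least 1 and 1 higher. Twf1, a twinfilin that binds actin monomers and the capping protein, had a median of 93.5 CPM in OHCs (range 0.27 to 597.2) and of 533.5 CPM in cIHCs (70.5 to 1840). The pools gave a log2 ratio of 2.21, and the cIHC was higher in 95.7% of pairs. Add3, an adducin, had -1.51, from 15.3 to 5.37 CPM, with 46.1% of the OHC counts in 1 cell and 47.6% of pairs higher in the cIHC. The subunits of capping protein, Capza1, Capza2 and Capzb, had ratios of 0.37, 0.30 and 0.30, near the median of all genes.

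Among nucleators, 1 of 15 was lower and 4 were higher. Fmn1, a formin, which elongates filaments at the barbed end, went from 1.88 to 254.1 CPM, a log2 ratio of 7.08; 5 of 32 OHCs had reads, 1 of them with 83.5% of the counts, against 61 of 67 cIHCs. Arpc1b, a subunit of the Arp2/3 complex that starts branches, went from 2.61 to 24.1 CPM (3.21). Its median was 0 in both groups, with reads in 8 OHCs and 30 cIHCs, and 1 OHC held 48.3% of the OHC counts. Cobl, which nucleates unbranched filaments, went from 22.1 to 8.18 CPM (-1.44), but more pairs were higher in the cIHC (52.8%), and 1 OHC held 34.3% of the counts.

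Of 11 genes for actin monomers and turnover, 0 were lower and 4 higher. Pfn2, a profilin, had a log2 ratio of 1.78 and Cfl2, a cofilin, one of 1.62, and both had an OHC median of 0. Pfn2 reads came from 5 OHCs, 1 of them with 50.7% of the OHC counts, and from 49 cIHCs. Cfl2 reads came from 10 OHCs, 1 of them with 39.6% of the OHC counts, and from 55 cIHCs. The cIHC was higher in 78.1% and 78.7% of pairs. Only 1 of 13 tropomyosin partners reached 10 CPM, the calponin Cnn3, with -1.26 and 48% of pairs higher in the cIHC; reads came from 5 OHCs and 8 cIHCs. Of the 6 thin filament genes that work with leiomodins in muscle, Nebl alone reached 10 CPM, at 194.1 and 241.9 CPM, and Neb, the nebulin gene, had 3.92 and 5.01 CPM.

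Among 7 transcription regulators at 10 CPM, 2 were lower by at least 1 and 2 higher. Gfi1, a repressor of neuronal genes in hair cells, had a median of 309.5 CPM in OHCs (range 0 to 1259) and of 36.7 CPM in cIHCs (0 to 434.7). The pools gave a log2 ratio of -2.51. Pou4f3, the hair cell survival factor, had -1.04. Srf, serum response factor, which many actin genes depend on in other tissues, was low in both groups, at 3.26 and 10.9 CPM (1.74), and the other gene that was higher was Tbx2.

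**Figure D5:**
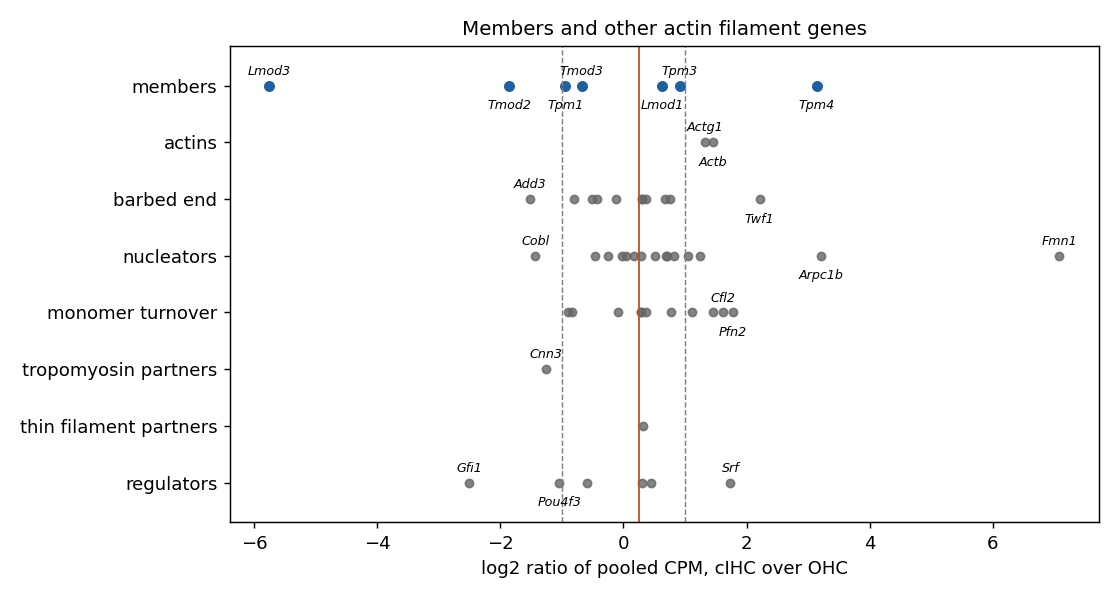
Log2 ratio of pooled CPM, cIHC over OHC, for the 7 members (top row) and for the genes of 7 lists that reach 10 CPM, without Tbx2; each point is 1 gene, dashed lines mark 1 in either direction and the orange line the median of all genes. Lmod3 lies further left than any other point, at -5.75, and Fmn1 furthest right, at 7.08.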

How the data were processed

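The authors deposited 1 table of read counts per gene symbol and cell, with 55291 symbols and 99 cells. That the values are raw counts was judged from the values, which are whole numbers with different totals. The submitters' processing notes name the build mm10 and HISAT2 2.2.1, StringTie 2.2.1 and featureCounts 2.0.1; the annotation, the strand setting and any filter are not given in the sources used here. Libraries were made with the Smart-Seq HT kit, per the labels' protocols. The table had 0 columns of no sample, and 0 pairs of columns were identical.

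Cells were assigned to groups by their titles and summed to 1 sample per group. Pooled CPM is the sum divided by the group's total (242054710 and 544012348 counts), and groups were compared by the log2 of cIHC divided by OHC. Genes that reached 10 CPM in either pool were counted past a log2 ratio of 1 in each direction. A sum of 0 was set to 3 counts over the group, and no ratio was given where both sums were at or under 3. Intervals are exact at 95% (Poisson for CPM, conditional binomial for ratios, Clopper-Pearson for shares). The family order within each class of sex-linked reads was added after the data were seen. Thinning to 5770000 reads kept 29 OHCs and 66 cIHCs. Exon and coding lengths and overlaps came from GENCODE M21, which holds 96.4% of the symbols and need not be the authors' annotation. Identical stretches of 50 bases were counted between annotated transcripts.

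The members and the lists were chosen with earlier results of these data known. Genes named beyond the members are the 2 highest and 2 lowest ratios past 1 of each list, and the 3 genes most correlated with a member that has reads in at least 75% of a group's cells and 50 CPM there. Capza1, Capza2, Capzb, Nebl, Neb, Tpm2, Tpm3-rs7 and Tstd2, and the OHC genes given for single cells, were named after their values were seen.

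The ratio step, cIHC over OHC, was tested on simulated data of 9152 genes. An error under 0.5 log2 was found for 86% of 50 genes at -4, 94% at -1.5, 84% at 1.5 and 90% at 4. TMM factors came from edgeR 4.0.16 in R 4.3.3; the rest used scipy 1.17.1, pandas 2.3.3, matplotlib 3.10.9 and numpy 2.4.6 under Python 3.11.15.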

Additional observations from a re-analysis of the deposited data

How the results depend on the processing

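No paired analysis was possible because no test was made, and a title's number tells cells apart without linking an OHC to a cIHC. The log2 ratios of Lmod3 and Tmod2 kept their direction and stayed past 1 under each alternative that gave a value, and Tpm4 stayed above 1 under the 10 that gave it a value. The per-cell medians gave Lmod3 and Tpm4 no ratio, since 1 or both are 0. The cause of the changes below was not tested, except where fewer genes or cells enter by construction.

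The count of 2 members lower by at least 1 became 4 without the 10% of cells with the fewest genes read and 4 among cells with Y-linked reads. It was 3 with TMM factors, median-of-ratios scaling, totals without the most abundant genes, the Xist class and thinning, and 2 elsewhere. The count of 1 member higher was 3 for medians per cell, 0 with TMM factors, 0 by median-of-ratios scaling and 0 with a minimum of 50 CPM, since Tpm4 is then under the minimum. It became 2 without the cells with the fewest genes, 2 among cells with Xist reads, 2 after thinning and 2 with no minimum. The median log2 ratio of -0.68 was -0.50 for means per cell, 1.71 for medians per cell (5 members), -0.72 without the highest cells, -0.87 with TMM factors, -0.88 by median-of-ratios scaling, -0.71 without mitochondrial genes, -0.74 without the most abundant genes, -0.99 without the cells with the fewest genes, -0.28 in the Xist class, -1.59 in the Y-linked class, -0.74 after thinning and -0.95 with a minimum of 50 CPM. The median of all genes moved by more than 0.1 for medians per cell (0.48), without the highest cells (0.25), in the Xist class (0.16) and under TMM (-0.22) and median-of-ratios scaling (-0.23). With a limit of 2 in place of 1, the related genes lower went from 5 to 1 and those higher from 13 to 4.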
